A study of Mus musculus with 2 samples.

Results

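Dual specificity phosphatases switch off MAP kinases, and 10 of their genes (Dusp1, Dusp2, Dusp3, Dusp4, Dusp5, Dusp6, Dusp7, Dusp10, Dusp16 and Dusp22) were examined in cultured mouse neutrophils with and without miR-223, a microRNA of the granulocyte lineage. The members were chosen by gene symbol, taking the 16 probe sets that the platform annotation named for 1 of these genes only, out of 34945 probe sets and 18193 genes in all. Both groups were grown from haematopoietic progenitors of male C57BL/6 mice for 6 days in G-CSF and SCF, the growth factors of granulocytes and of Kit-bearing progenitors, and both received cycloheximide, a blocker of translation, at 100 ug/ml for the last 8 min. One group was wild-type and the other a mir-223 knockout, each measured on 1 Affymetrix 3' array, so no difference has a replicate check, no test was possible, and precision is limited by the number of arrays. The cells were cultured and not taken from blood, and the sources used here do not say how many mice gave each culture.

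MAP kinases carry signals from growth factor, stress and microbial receptors to the nucleus once they are phosphorylated on a threonine and a tyrosine. Dual specificity phosphatases remove both phosphates, and several of their genes are themselves induced by MAP kinase activity, which makes them feedback inhibitors. They differ in place and preference: one group is nuclear and quickly induced, one is cytoplasmic and prefers ERK, one prefers JNK and p38, and small atypical members lack the kinase-docking domain. In myeloid cells Dusp1 is known for restraining p38 and JNK after microbial stimuli.

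RefSeq (GRCm38.p6) lists mature products mmu-miR-223-3p and mmu-miR-223-5p for the microRNA missing from the knockout cells. The 3p product is shown with its seed, bases 2 to 8, in capitals, since this is the stretch that pairs with target messages. The 5p product is named only.
mmu-miR-223-3p: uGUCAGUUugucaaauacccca
Target messages of the Dusp genes were not searched for this seed, because their 3' ends were not used here. No probe set analysed here was named for the microRNA gene, so its loss was not checked on the arrays.

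The promoters of the 5 genes that differed by at least 0.25 on the log2 scale are shown because these genes divided into higher and lower ones. Each runs from 250 bases before to 50 bases after the start that RefSeq gives (GRCm38.p6), 5′ to 3′ on the gene's strand. Capitals mark the CRE core TGACG, bound by CREB and ATF factors, the E-box CACGTG, the ETS core CGGAAG and the CArG box, the site of serum response factor, on either strand.
Dusp1 (chr17:26508423-26508722, minus strand): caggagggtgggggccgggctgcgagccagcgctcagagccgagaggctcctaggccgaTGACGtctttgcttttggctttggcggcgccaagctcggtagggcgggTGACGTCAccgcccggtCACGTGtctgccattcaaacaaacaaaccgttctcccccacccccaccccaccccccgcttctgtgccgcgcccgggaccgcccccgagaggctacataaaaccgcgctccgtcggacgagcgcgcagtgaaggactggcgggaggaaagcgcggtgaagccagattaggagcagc
Dusp2 (chr2:127335909-127336208, plus strand): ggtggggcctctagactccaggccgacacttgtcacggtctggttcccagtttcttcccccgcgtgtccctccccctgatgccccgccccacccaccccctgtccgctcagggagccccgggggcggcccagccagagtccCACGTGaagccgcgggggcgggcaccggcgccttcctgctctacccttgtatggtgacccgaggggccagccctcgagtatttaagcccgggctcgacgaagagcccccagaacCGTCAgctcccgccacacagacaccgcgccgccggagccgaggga
Dusp5 (chr19:53528895-53529194, plus strand): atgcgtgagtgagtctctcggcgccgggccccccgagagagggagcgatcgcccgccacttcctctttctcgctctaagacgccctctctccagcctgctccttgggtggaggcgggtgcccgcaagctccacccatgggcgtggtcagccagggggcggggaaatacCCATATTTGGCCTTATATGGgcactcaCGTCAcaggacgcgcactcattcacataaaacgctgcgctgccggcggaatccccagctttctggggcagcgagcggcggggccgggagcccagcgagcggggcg
Dusp6 (chr10:99262981-99263280, plus strand): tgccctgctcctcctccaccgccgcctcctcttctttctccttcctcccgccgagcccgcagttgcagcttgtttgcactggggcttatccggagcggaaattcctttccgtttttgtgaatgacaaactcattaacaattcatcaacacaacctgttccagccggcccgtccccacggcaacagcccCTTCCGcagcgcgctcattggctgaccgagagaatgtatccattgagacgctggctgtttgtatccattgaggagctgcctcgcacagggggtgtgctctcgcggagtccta
Dusp16 (chr6:134792579-134792878, minus strand): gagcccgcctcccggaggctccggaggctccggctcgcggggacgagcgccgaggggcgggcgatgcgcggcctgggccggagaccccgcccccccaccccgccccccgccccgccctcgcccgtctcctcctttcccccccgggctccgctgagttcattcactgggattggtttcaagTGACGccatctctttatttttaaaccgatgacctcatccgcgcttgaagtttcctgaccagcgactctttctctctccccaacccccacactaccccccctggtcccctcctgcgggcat
Sequences were found for 9 of the 10 genes, and Dusp4 is named only. For 3 of the 9 the given start lies inside the outermost RefSeq start of the gene, among them Dusp16.

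Matches to the searched motifs are given beside the share of all promoters that held each motif. The full CRE, TGACGTCA, stood only in Dusp1 among the 9 promoters, with its first base 143 bases before the start, and 1.79% of all 32851 promoters held it. Its core TGACG, which also matches inside the full CRE, stood in 4 of 9 (Dusp1, Dusp2, Dusp5 and Dusp16), against 20.8% of all promoters. The E-box stood in 2 of 9, Dusp1 and Dusp2, against 7.15%.

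Dusp5 held 2 CArG boxes side by side, starting 82 and 72 bases before the start, and no other of the 9 promoters held one; 1.63% of all promoters did. The ETS core stood in 1 of 9, Dusp6, 62 bases before the start, against 16.9% of all promoters. The AP-1 site TGANTCA stood in 0 of 9 and in 7.81% of all promoters. With 9 promoters the ETS and AP-1 counts are not set apart from these shares. The Sp site GGGCGG stood in 8 of 9, all but Dusp6, against 35.7% of all. The Dusp promoters are rich in G and C, at 67.0% in Dusp1 and 57.3% in Dusp6 against a median of 52.7% over all promoters, and the part of base composition in these counts was not tested. A match describes the letters and is not a bound site.

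**Figure D1:**
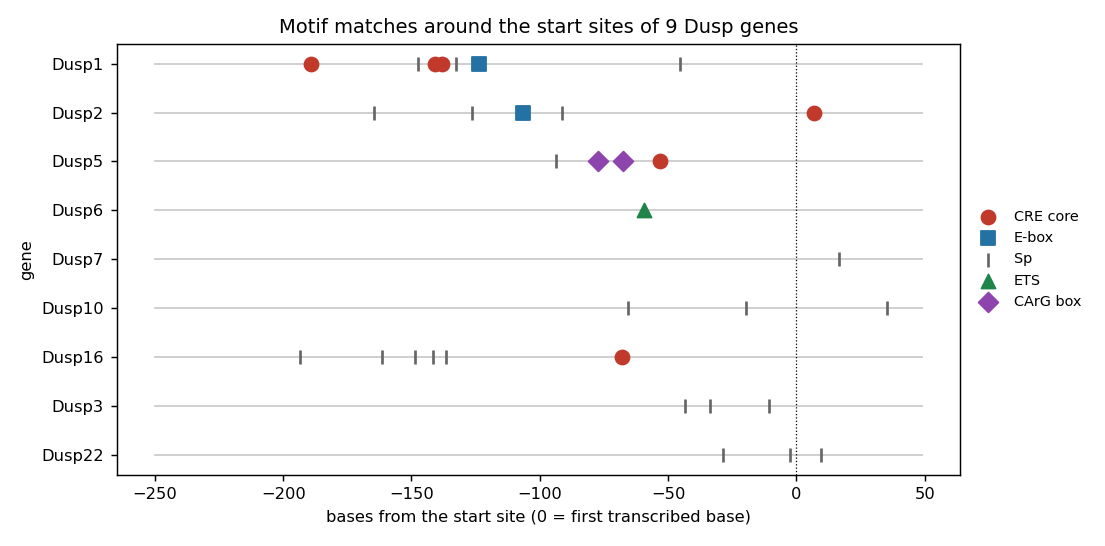
Motif matches in the 300-base windows of 9 Dusp genes, plotted by their distance in bases from the start site (dotted line), with 1 row per gene and 1 symbol per motif. The Dusp1 window holds the full CRE as an overlapping pair of cores near base -140 and an E-box close by, and the Dusp5 window holds 2 neighbouring CArG boxes.

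Each difference is the knockout value minus the wild-type value of log2(intensity + 16); the added 16 shrinks differences at dim levels. Every gene is represented by its brightest probe set (highest mean over both arrays), and counted as expressed when that mean reached 5.64, the median of all probe sets, which corresponds to an intensity of 33.9. Of the 10 Dusp genes 9 counted as expressed, and 13 of their 16 probe sets did. Intensities of different probe sets are not compared with each other, because probes differ in how brightly they bind. The SD between probe sets that measure one gene, 0.144 over 5017 genes with several expressed, served as a spread within these arrays; it is not an error between replicates.

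The nuclear, inducible phosphatases were divided. Dusp1, which acts on p38 and JNK, had an intensity of 561 in wild-type cells and 783 in knockout cells, a difference of 0.47 or 1.39-fold. This was the largest difference of the 10 genes and 3.27 times the spread between probe sets. Dusp2, a phosphatase of blood cells, had intensities of 201 and 253 (0.31). Both were thus higher on the knockout array.

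Dusp5, which is selective for ERK and holds it in the nucleus, went the other way. The intensity was 120 in wild-type and 89.3 in knockout cells, a difference of -0.37. Dusp4, the fourth nuclear member, was below the expression threshold on both arrays, at 17.7 and 15.8, so its difference of -0.09 carries little weight. All 4 rest on 1 probe set each, with no second one to compare.

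The cytoplasmic phosphatases prefer ERK. Dusp6, a feedback inhibitor that ERK signalling induces, had intensities of 158 in wild-type and 123 in knockout cells (-0.33), from 1 probe set. Dusp7, its close relative, had intensities of 107 and 118 (0.13), within the spread between probe sets. The other 2 probe sets of Dusp7 gave 90.0 and 105 (0.19) and 48.3 and 48.3 (-0.0016). Dusp6 was thus lower on the knockout array, and the probe sets of Dusp7 had both signs. All 3 of them carry a name suffix that marks sequence shared between transcripts.

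Of the phosphatases that prefer JNK and p38, Dusp16 was lower on the knockout array, and the probe sets of Dusp10 had both signs. Dusp16 had intensities of 141 in wild-type and 109 in knockout cells (-0.33), on a probe set with such a suffix. Its second probe set was far below the threshold, at 11.8 and 8.84 (-0.16), with the same sign. Dusp10, a phosphatase known for limiting JNK in immune cells, had intensities of 41.5 and 35.4 (-0.16), just above the threshold. Its other probe set, at 16.6 and 18.4, was below it and had the opposite sign (0.08). Dusp10 therefore had no settled direction.

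The atypical small phosphatases were close to equal. Dusp3, also called VHR, had intensities of 263 in wild-type and 257 in knockout cells (-0.03), and its other probe sets gave 115 and 123 (0.09) and 46.0 and 41.2 (-0.12). The 3 probe sets of Dusp3 thus had both signs, all within the spread between probe sets. Dusp22, a phosphatase of the JNK pathway that also curbs T cell receptor signalling, had intensities of 183 and 192 (0.06).

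**Figure D2:**
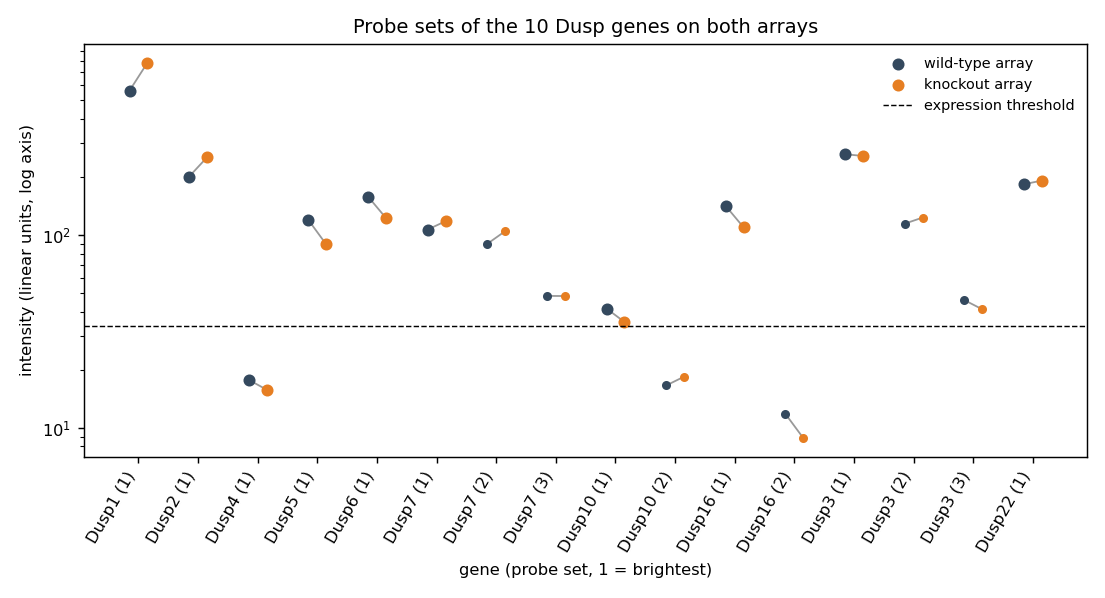
Intensity of each of the 16 Dusp probe sets on the wild-type array (dark) and the knockout array (orange), on a log axis, with 1 pair of points per probe set, larger points for the probe set that represents the gene, and the expression threshold of 33.9 as a dashed line. Dusp1 and Dusp2 lie higher on the knockout array, Dusp5, Dusp6 and Dusp16 lower, and Dusp4 lies below the threshold on both.

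Across the family, 4 of the 9 expressed genes were higher and 5 lower on the knockout array, where 49.7% of all 11006 expressed genes were higher. Their median was -0.03, beside -0.0004 over all expressed genes. By 0.25 or more (1.19-fold), 2 of 9 were higher (Dusp1 and Dusp2), against 8.07% of all expressed genes. By the same size 3 of 9 were lower (Dusp5, Dusp6 and Dusp16), against 4.8%. No Dusp gene reached 0.5, which 1.13% of expressed genes did on the higher and 0.591% on the lower side.

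Set among all expressed genes, 1.41% were at least as far on the higher side as Dusp1 and 4.83% as Dusp2. On the lower side 1.55% were at least as far as Dusp5, 2.17% as Dusp6 and 2.25% as Dusp16. These shares describe the 2 arrays, and with 9 genes the counts call nothing particular to the family.

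**Figure D3:**
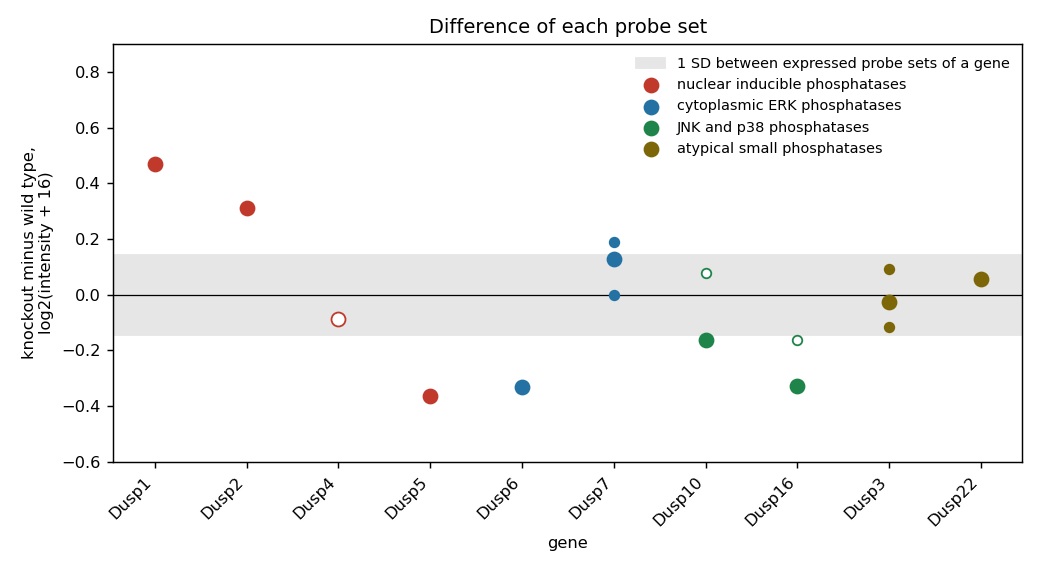
Difference of each Dusp probe set, knockout minus wild type on log2(intensity + 16), with 1 column per gene, coloured by role; large points represent the gene, open points were not expressed, and the grey band spans 1 SD between probe sets of a gene (0.144). Dusp1, Dusp2 and 1 dimmer probe set of Dusp7 lie above the band, Dusp5, Dusp6, the brighter probe set of Dusp10 and both of Dusp16 below it, and the probe sets of Dusp3 inside it.

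A constant added to all log2 values of an array moves every Dusp difference by the same amount, so the distance between genes does not depend on it. Other processing can change distances. That from the highest of Dusp5, Dusp6 and Dusp16 to the lower of Dusp1 and Dusp2 ran from 0.50 to 0.70. The distance from Dusp5 to Dusp1 was 0.84, and from Dusp6 to Dusp1 it was 0.80. These pairs were picked after their values were seen, so the distances are a description.

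The direction of single genes depended on the reference level in part. The added poly-A control RNAs were lower on the knockout array in 24 of 24 probe sets, with a median of -0.17, and the hybridization controls in 17 of 18, with a median of -0.11. Centring on the poly-A controls put Dusp1 at 0.64, Dusp2 at 0.48, Dusp5 at -0.19, Dusp6 at -0.16 and Dusp16 at -0.15, so these 5 kept their signs. It turned Dusp3 to 0.14, Dusp4 to 0.09 and Dusp10 to 0.01, and no Dusp gene was then lower by 0.25. On the other side 6 of 9 were then higher, 3 of them by 0.25 or more, with Dusp7 at 0.30. The shares of all expressed genes past 0 and 0.25 were not counted under this centring. These counts therefore have no background beside them and call nothing particular to the family. This centring moved the median of all expressed genes to 0.17, and the order of the genes stayed as it was. The controls' part in the result was not tested.

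**Figure D4:**
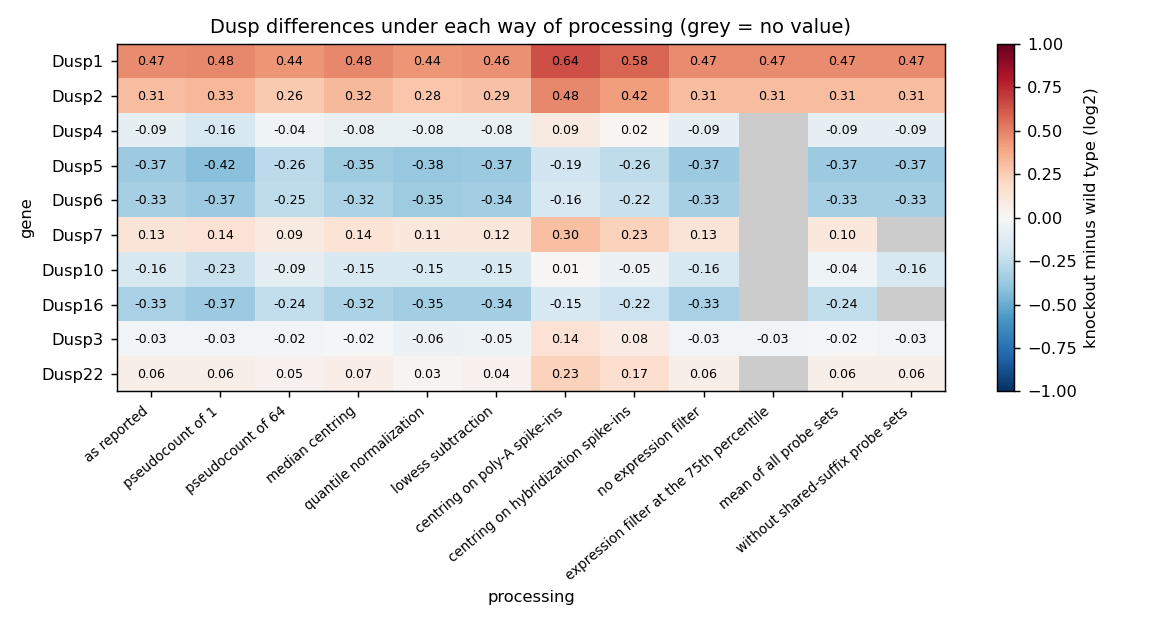
Difference of each Dusp gene (rows) under the reported processing and each alternative (columns), knockout minus wild type on the log2 scale, with red for higher and blue for lower on the knockout array and grey where the gene had no value. Dusp1 and Dusp2 are red in every column, and Dusp5, Dusp6 and Dusp16 are blue in every column that has a value for them.

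The kinases that the Dusp proteins act on, and those above them, were mostly near 0 on their brightest probe sets. Of 12 expressed MAP kinases and MAP kinase kinases, 9 were higher and 3 were lower (median 0.04). None reached 0.25 on its brightest probe set. They ran from Mapk8, which encodes JNK1 (-0.15), to Map2k6, a kinase that activates p38 (0.18). The probe sets of Mapk8 ran from -0.19 to 0.49, and those of Map2k5 from -0.37 to 0.34. Of 12 expressed kinases one step higher, the RAF and MAP3K kinases, 10 were higher and 2 lower (median 0.07). Map3k8, which activates the ERK pathway after Toll-like receptor signals, was highest (0.20), and Map3k1 was lowest (-0.28, but 0.15 on its other probe set). Map3k5 was at 0.19, but at 0.47 on its other probe set.

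Genes downstream of MAP kinases had no common direction. Of 12 expressed substrates and effector kinases 6 were higher and 6 lower (median 0.05, but -0.05 without probe sets of shared suffix). The ETS factor Elk3 was highest, at intensities of 207 in wild-type and 286 in knockout cells (0.44), with probe sets from -0.01 to 0.44. Mapkapk2, the p38-activated kinase that stabilizes cytokine messages, was lowest (-0.16).

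Of 7 expressed feedback and output genes of ERK 4 were higher and 3 lower (median 0.01). The inhibitor Spred1 was at 0.38, with probe sets from -0.14 to 0.50. Etv4, an ETS factor induced by ERK signalling, was at -0.27, with intensities of 49.5 and 38.1. Its other probe set, below the threshold, gave 0.03. The lower value of Dusp6 thus stood beside a lower value on the brighter Etv4 probe set, but not beside a common shift of the list.

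Other phosphatases of MAP kinases were mostly slightly lower, 5 of 6 expressed, with a median of -0.04. They ran from Ppm1d (-0.10), a nuclear phosphatase induced by p53, to Ppp2cb (0.29), a catalytic subunit of PP2A, whose second probe set gave -0.02. Of the other Dusp and Styx genes 8 were expressed, 4 higher and 4 lower, with a median of -0.02. They ran from Dusp19 (-0.22) to Dusp11 (0.16), an RNA phosphatase, and none reached 0.25 in size on its brightest probe set. Centring on either set of control RNAs turned both medians positive.

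Immediate early genes share rapid induction with Dusp1, Dusp2 and Dusp5. Of 16 expressed, 12 were higher and 4 lower (median 0.11), where 49.7% of all expressed genes were higher. On the higher side 3 of the 16 reached 0.25, against 8.07% of all. Zfp36, which destabilizes cytokine messages, was highest, with intensities of 1079 in wild-type and 1381 in knockout cells (0.35). Egr1, a transcription factor induced by ERK through serum response factor, was lowest, with 1651 and 1142 (-0.53). Zfp36 and Egr1 are the ends of the list, and between them lay genes such as Fos (0.10) and Nr4a1 (-0.0029). Among the lower genes Ier2 (-0.02) and Nr4a1 were close to 0, and Egr3 was at -0.19. Btg2 counted as higher (0.05), but its second expressed probe set gave -0.74. By sign alone Dusp1 stood with the 12 higher genes, and Dusp5 and Dusp6 with the 4 lower ones, which is a weak likeness. A link between the immediate early genes and the Dusp differences was not tested.

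**Figure D5:**
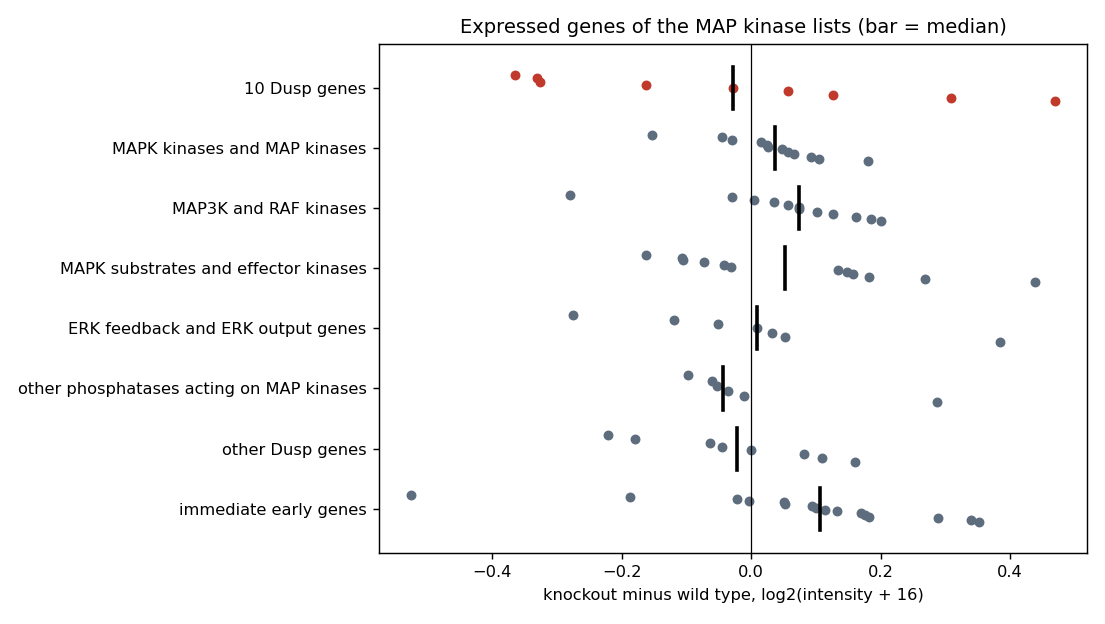
Differences of the expressed genes in the Dusp family and in each list of the MAP kinase pathway, knockout minus wild type on log2(intensity + 16), with 1 point per gene and a bar at the median. The Dusp genes spread from -0.37 to 0.47 around a median of -0.03, while the kinases of the first list stay between -0.15 and 0.18.

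The genes whose pair of levels was nearest to a Dusp gene were found by the distance in both log2 values, over 2 arrays. For Dusp1 these were Scpep1 (0.46), Cers6 (0.46) and Apoc2 (0.54), and for Dusp5 they were D930016D06Rik (-0.32), Tpsb2 (-0.43) and Zbtb5 (-0.30). Having 2 values per gene makes this a weak likeness. Tpsb2 encodes a mast cell tryptase.

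Markers of the labelled cell type were present on both arrays, and markers of other cells differed beside the Dusp genes. Counts are of expressed markers, and summed intensities cover all measured ones. All 12 measured neutrophil markers were expressed, with a summed intensity of 160055 in wild-type and 168078 in knockout cells, and 11 of 12 were higher in the knockout, from Camp (-0.29) to Cxcr2 (0.38). Of the mast cell and basophil markers 10 of 10 were lower, from Cma1 (-0.76) to Kit (-0.05), with sums of 6741 and 4709. Megakaryocyte markers were lower in 6 of 7, from Ppbp (-1.06) to Itgb3 (1.34), with sums of 2020 and 1299, and eosinophil markers in 3 of 4, from Prg3 (-0.92) to Siglecf (0.92), with sums of 1233 and 1006. Monocyte and macrophage markers were higher in 7 of 9, from Cx3cr1 (-0.60) to Apoe (1.51), with sums of 5227 and 6024.

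The remaining marker lists were small. B cell markers were higher in 2 of 3 (Pax5 -0.14, Ighm 0.64; sums of 888 and 1307), T and NK cell markers lower in 4 of 5 (Cd3d -0.81, Nkg7 0.47; 1218 and 1491), and dendritic cell and MHC class II markers lower in 4 of 5 (H2-Aa -0.48, Flt3 0.30; 1396 and 1204). The rise of the T and NK sum lay in Nkg7 (847 and 1181), a gene of cytotoxic granules. No listed marker was at 0, since the lowest intensity on either array was 4.49. The part of these cells in the Dusp differences was not tested, and in a bulk culture fewer cells of a type and less RNA per cell cannot be told apart.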

How the data were processed

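The values deposited by the authors are linear intensities, 1 for each probe set on each array. Per the labels' protocols, Trizol RNA was labelled with biotin using the Affymetrix 3' IVT Express kit, so mainly message 3' ends are read. The sources used here do not give how intensities were summarized and normalized. Medians of the columns were close (34.1 and 33.7), and values were used as deposited. Of 45101 probe sets, 64 were array controls, and 932 named for several genes were left out. For 34741 probe sets the Entrez identifier gave a current symbol in the RefSeq genes of GRCm38.p6.

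Groups follow the genotype in the labels. Differences were computed with Python 3.11.15 and pandas, and the curve of one alternative with statsmodels 0.14.6. No test was run at 1 array per group. The members, lists, thresholds (0.25, 0.5) and motifs were chosen with earlier results of these data known. Genes named were all members, the highest and lowest expressed gene of each list, and the 3 genes nearest to the highest and the lowest member. The procedure was tested on simulated data. The planned description of protein sequences was not made, since these were not used here. Alternatives were other pseudocounts, centrings, normalizations, expression filters and probe set rules.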

Additional observations from a re-analysis of the deposited data

How the results depend on the processing

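No paired analysis was possible because each genotype has 1 array, and for the same reason none could be left out. Dusp1, Dusp2, Dusp5, Dusp6, Dusp7, Dusp16 and Dusp22 kept their sign under every alternative that gave them a value. For genes with 1 probe set the filters and probe set rules could not change the value. Only the pseudocounts, centrings and normalizations bear on their sign. The main differences of Dusp7 and Dusp22 were within the probe set SD of 0.144. Dusp1 ran from 0.44 to 0.64, Dusp2 from 0.26 to 0.48, Dusp5 from -0.42 to -0.19, Dusp6 from -0.37 to -0.16 and Dusp16 from -0.37 to -0.15. A filter at the 75th percentile kept 3 members, Dusp1, Dusp2 and Dusp3, with 2 higher, 0 lower by 0.25 and a median of 0.31. That median is the value of Dusp2, since the filter removed Dusp5, Dusp6 and Dusp16. Over the 6768 genes that passed it the median was 0, and their shares past 0.25 were not counted. Centring on the hybridization controls left 1 member lower by 0.25, and centring on the poly-A controls 0, with a member median of 0.14. The medians of all expressed genes were then 0.11 and 0.17, and their shares past 0.25 were not counted. The poly-A centring put the medians at 0.21 for MAP kinases and their kinases, 0.25 for MAP3K and RAF kinases, 0.22 for substrates, 0.18 for ERK feedback genes, 0.13 for other phosphatases, 0.15 for other Dusp genes and 0.28 for immediate early genes. These shifts follow from moving all genes by 0.17. The ERK feedback median turned to -0.04 with the mean of all probe sets, -0.0017 without an expression filter and -0.01 without shared-suffix probe sets, and that of other Dusp genes to 0.02 without an expression filter and 0.11 with the stricter one. With the mean of all probe sets Dusp16 stood at -0.24 and Dusp10 at -0.04. Values moved were judged against the probe set SD of 0.144. Signal near background limits Dusp4, Dusp10 and the second probe set of Dusp16.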
